A study of Mus musculus with 8 samples.

Results

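Transcription factors of the myeloid lineage were followed across adult bone marrow and fetal liver of mice with and without Col18a1, the gene for the alpha chain of collagen XVIII. The group holds 8 genes chosen by name, namely Cebpa, Cebpb, Cebpd, Cebpe, Spi1, Gfi1, Irf8 and Klf4, and its members are the probe sets that the array annotation gives to 1 of them alone. Of 45101 probe sets 11 met this rule, and they cover 7 of the 8 genes among 18194 genes with a probe set of their own. No probe set is named for Cebpe in the annotation used here, so Cebpe was not analysed. Cebpb, Cebpd, Irf8 and Klf4 have 2 probe sets each, and Cebpa, Spi1 and Gfi1 have 1 each.

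RNA came from 4 groups with 2 Affymetrix mouse genome arrays each, and each array carried RNA pooled from 2 littermates. The groups were knockout bone marrow (Col18a1-/-) and wild-type bone marrow (Col18a1+/+) of males aged 3 months, and knockout and wild-type fetal liver of embryos at day 14.5. The labels leave the sex of the embryos undetermined. All mice were of strain C57B6/J, and both tissues were unsorted suspensions, so a level reflects every cell type present. In such samples fewer cells of a type and less RNA per cell cannot be told apart. Tissue and age differ together between marrow and fetal liver and cannot be told apart either.

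The targeted gene, Col18a1, read less in knockout than in wild-type arrays, at 5.63 and 5.99 in knockout against 7.84 and 7.85 in wild-type marrow (log2), and at 8.17 and 8.06 in knockout against 9.06 and 9.18 in wild-type fetal liver. Sex-linked RNA moved with genotype in fetal liver. Xist stood at 4.97 and 4.77 in knockout and at 11.04 and 11.22 in wild-type fetal liver, so genotype and sex cannot be told apart in that tissue. The Y-linked gene Eif2s3y ran the other way, at 9.38 and 9.42 in knockout and 3.29 and 3.00 in wild-type fetal liver, as did Kdm5d and Uty. In wild-type marrow, which came from males, Xist read 4.86 and 4.78. Sex-linked expression thus differed between wild-type marrow and wild-type fetal liver too. In that comparison it cannot be told apart from tissue and age. In knockout mice both tissues had low Xist, at 4.61 and 5.03 in marrow, and high Eif2s3y, at 10.03 and 9.38 there. Pairs of arrays within a group correlated at 0.993 to 0.997 across probe sets, which are not independent replicates. Nothing in the labels says whether the pools of a group came from separate litters, and with 2 arrays a group the precision is low.

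Myeloid cells are specified by a small set of DNA-binding proteins that act in combination. PU.1, the ETS-family protein encoded by Spi1, works with the C/EBP proteins, which bind DNA as dimers through a basic leucine zipper, to switch on growth factor receptors and granule proteins. C/EBPα starts the granulocyte programme and is also a factor of hepatocytes, C/EBPβ serves demand-driven granulopoiesis and the acute phase response, C/EBPδ is induced in inflammation, and C/EBPε acts in terminal granulocyte maturation. Gfi1, a zinc finger repressor, favours the neutrophil fate, while Irf8 and Klf4 favour monocytes, and Irf8 is also used by dendritic and B cells.

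Upstream windows of 3 members are shown because they stand at the ends of the range described below: Klf4 and Irf8, the members with the greatest excess in marrow on their brightest probe sets, and Cebpa, the only one with a deficit there. Each runs from 250 bases before to 50 bases after a RefSeq start on the strand of the gene, in build GRCm38.p6. They lie at chr4:55532426-55532725 on the minus strand for Klf4, at chr8:120736108-120736407 on the plus strand for Irf8, and at chr7:35119043-35119342 on the plus strand for Cebpa. Capitals mark matches to a STAT-type motif, TTCNNNGAA.
Klf4: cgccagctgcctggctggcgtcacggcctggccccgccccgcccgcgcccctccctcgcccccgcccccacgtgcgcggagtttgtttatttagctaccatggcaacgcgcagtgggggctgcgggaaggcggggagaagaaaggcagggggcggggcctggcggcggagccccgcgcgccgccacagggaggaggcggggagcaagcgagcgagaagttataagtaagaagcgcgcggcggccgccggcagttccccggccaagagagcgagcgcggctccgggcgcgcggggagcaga
Irf8: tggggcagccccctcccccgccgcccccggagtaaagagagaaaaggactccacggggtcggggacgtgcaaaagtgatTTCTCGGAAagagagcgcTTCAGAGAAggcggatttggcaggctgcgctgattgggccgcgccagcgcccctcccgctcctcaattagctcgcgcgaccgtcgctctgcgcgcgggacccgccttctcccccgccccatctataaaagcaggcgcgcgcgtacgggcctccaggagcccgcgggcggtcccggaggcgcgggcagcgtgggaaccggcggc
Cebpa: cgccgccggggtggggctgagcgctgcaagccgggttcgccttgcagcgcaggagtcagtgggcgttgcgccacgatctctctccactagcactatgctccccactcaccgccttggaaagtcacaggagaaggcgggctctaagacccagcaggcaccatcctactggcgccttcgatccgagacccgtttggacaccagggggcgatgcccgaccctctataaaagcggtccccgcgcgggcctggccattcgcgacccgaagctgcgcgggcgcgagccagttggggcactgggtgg

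The table of RefSeq windows used here covers 5 of the 8 genes, 7 in all, with 2 each for Gfi1 and Irf8. Both strands were searched for 4 motifs, and no match overlapped one of another motif. The STAT-type motif, of the kind bound by factors activated through cytokine receptors, matched at bases -171 to -163 and -153 to -145 of the Irf8 window shown, and is found in 8.3% of 32851 windows of this length. The C/EBP motif TTNNGNAA, present in 40.7% of windows, matched only the Gfi1 window at chr5:107725756-107726055, at bases -143 to -136. The PU.1 motif GAGGAA, in 28.3% of windows, and the PU.1-IRF composite, GGAA and GAAA parted by any 2 bases, in 2.72%, matched none of the 7 windows. A match in letters is a description of the sequence and not a bound site.

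Marrow and fetal liver differed for every factor that could be measured. In wild-type mice 6 of 7 genes were higher in bone marrow than in fetal liver and 1, Cebpa, was lower (adjusted p under 0.05, limma), where 26.8% of the 13136 genes tested were higher and 39.2% were lower. In knockout mice the same 6 were higher and Cebpa was lower, against 27.1% and 36.6% of all genes. The median difference of the 7 genes was 2.09 in knockout and 2.27 in wild-type mice, beside -0.11 and -0.14 over all genes tested. Ordered by the wild-type difference of the brightest probe set, the genes ran from Klf4, at 3.84, through Irf8, at 3.37, Cebpd, at 2.67, Gfi1, at 2.27, Spi1, at 1.58, and Cebpb, at 1.05, to Cebpa, at -0.95 (log2, bone marrow minus fetal liver).

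**Figure D1:**
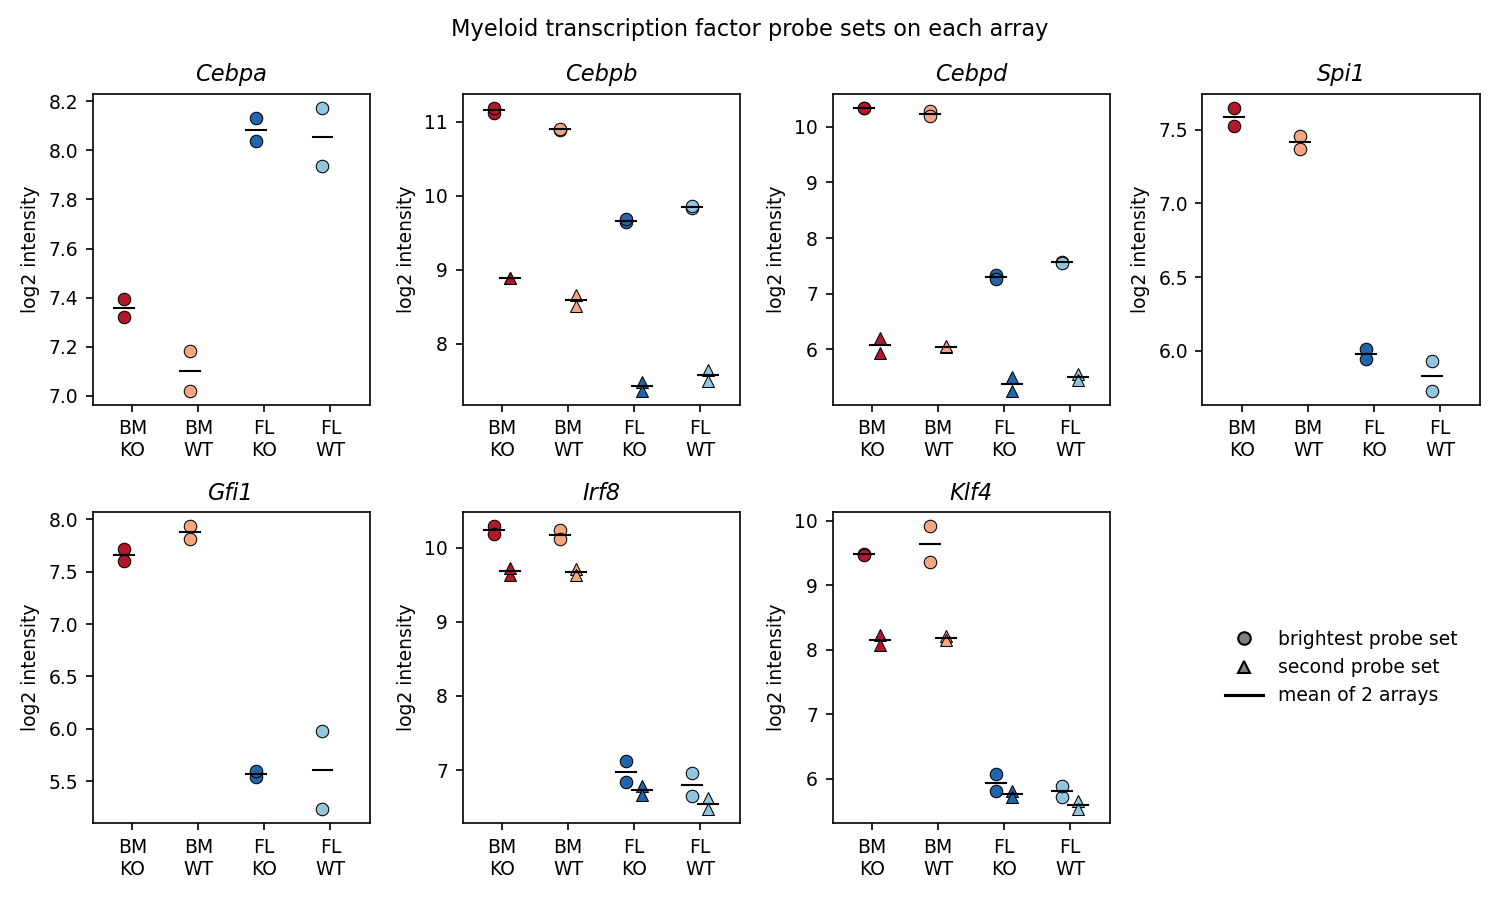
Log2 intensity of each probe set on each array, 1 panel per gene with its own scale, for bone marrow (BM) and fetal liver (FL) of knockout (KO) and wild-type (WT) mice. Circles are the brightest and triangles the second probe set, and bars are means of 2 arrays. In 6 panels all 4 marrow arrays lie above all 4 fetal liver arrays of the same probe set, and in the Cebpa panel they lie below.

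Among the C/EBP genes, Cebpa ran against its relatives. It stood at 7.39 and 7.32 in knockout marrow and at 7.02 and 7.18 in wild-type marrow, against 8.13 and 8.04 in knockout fetal liver and 7.93 and 8.17 in wild-type fetal liver. All fetal liver arrays were above all marrow arrays. Bone marrow minus fetal liver was -0.73 ± 0.11 in knockout (SE; adjusted p = 0.00044, limma) and -0.95 ± 0.11 in wild-type mice (adjusted p = 7.49e-05, limma), a level 1.66-fold and 1.93-fold lower in marrow. Genes of hepatocytes, which also use Cebpa, differed in the same direction. All 11 tested hepatocyte genes were lower in marrow of both genotypes, among them Afp, the fetal serum protein. Afp lay under 5 (log2) in marrow, and with its values there raised to 5 the difference was -9.62 in knockout and -9.50 in wild-type mice. Their summed intensity was 285 to 314 in knockout and 283 to 313 in wild-type marrow, against 104121 to 108035 in knockout and 100150 to 104233 in wild-type fetal liver. The part of these cells in the Cebpa result was not tested.

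Cebpb was higher in marrow on both of its probe sets by nearly equal amounts. The brighter read 11.12 and 11.19 in knockout marrow against 9.64 and 9.69 in knockout fetal liver, and 10.89 and 10.90 in wild-type marrow against 9.84 and 9.86 in wild-type fetal liver. No marrow array came near the fetal liver range. The differences were 1.49 ± 0.084 in knockout (adjusted p = 7.99e-07, limma) and 1.05 ± 0.084 in wild-type mice (adjusted p = 7.37e-06, limma), or 2.81-fold and 2.07-fold. The second probe set gave 1.46 and 1.01 and passed in both genotypes when every probe set was tested, where 20% of probe sets in knockout and 20.9% in wild-type mice were higher in marrow.

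Cebpd showed the steepest tissue difference of the C/EBP genes, but its probe sets disagreed in size. The brighter one stood at 10.34 on both knockout marrow arrays and at 10.29 and 10.19 in wild-type marrow, against 7.34 and 7.27 in knockout and 7.57 and 7.55 in wild-type fetal liver. Arrays of a group lay within 0.097 of each other, far less than the gap between tissues. The difference was 3.04 ± 0.087 in knockout (8.21-fold; adjusted p = 1.47e-08, limma) and 2.67 ± 0.087 in wild-type mice (6.38-fold; adjusted p = 2.96e-08, limma). The second, dimmer probe set lay between 5.26 and 6.20 on all arrays and differed by 0.69 ± 0.13 and 0.55 ± 0.13 in the same direction (adjusted p = 0.00227 and 0.00798, limma, every probe set). Averaging both probe sets lowered the Cebpd difference to 1.87 in knockout and 1.61 in wild-type mice, so its size depends on the probe set.

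Spi1 was higher in marrow by about the same amount in both genotypes. Its single probe set read 7.52 and 7.65 in knockout and 7.46 and 7.37 in wild-type marrow, against 6.01 and 5.94 in knockout and 5.73 and 5.93 in wild-type fetal liver. The tissues did not overlap. The difference was 1.61 ± 0.10 in knockout (3.05-fold; adjusted p = 1.83e-06, limma) and 1.58 ± 0.10 in wild-type mice (3.00-fold; adjusted p = 1.95e-06, limma).

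Irf8 had one of the greatest excesses in marrow, seen on both of its probe sets. The brighter stood at 10.29 and 10.18 in knockout and 10.23 and 10.12 in wild-type marrow, against 7.12 and 6.83 in knockout and 6.65 and 6.96 in wild-type fetal liver. Marrow arrays lay closer together than fetal liver arrays, and the tissues did not overlap. The difference was 3.26 ± 0.14 in knockout (9.56-fold; adjusted p = 1.32e-07, limma) and 3.37 ± 0.14 in wild-type mice (10.34-fold; adjusted p = 1.09e-07, limma). The second probe set gave 2.95 and 3.13. In wild-type mice 172 of the 13136 genes, Irf8 included, were higher in marrow by at least as much, genes lower in marrow not being counted.

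Klf4 differed most of the 7 on the brightest probe sets, though not once both probe sets of a gene were averaged, when it gave 2.97 in knockout and 3.21 in wild-type mice beside 3.10 and 3.25 for Irf8. Its brighter probe set read 9.49 and 9.48 in knockout and 9.92 and 9.37 in wild-type marrow, against 5.81 and 6.07 in knockout and 5.72 and 5.89 in wild-type fetal liver. The wild-type marrow arrays were 0.55 apart, yet the lower of them stayed far above every fetal liver array. The difference was 3.54 ± 0.17 in knockout (11.65-fold; adjusted p = 3.42e-07, limma) and 3.84 ± 0.17 in wild-type mice (14.28-fold; adjusted p = 2.12e-07, limma). In wild-type mice 113 genes, Klf4 among them, were higher in marrow by at least this much, genes lower in marrow not being counted. The second Klf4 probe set gave smaller differences of 2.40 and 2.58, and its wild-type marrow arrays, at 8.21 and 8.14, lay close together.

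Gfi1, the repressor of the group, was also higher in marrow. It read 7.71 and 7.60 in knockout and 7.93 and 7.82 in wild-type marrow, against 5.54 and 5.60 in knockout and 5.24 and 5.98 in wild-type fetal liver. The wild-type fetal liver arrays of Gfi1 were 0.74 apart, the widest gap within a group for any of the 11 probe sets, and both stayed below all marrow arrays. The difference was 2.09 ± 0.20 in knockout (4.25-fold; adjusted p = 2.43e-05, limma) and 2.27 ± 0.20 in wild-type mice (4.82-fold; adjusted p = 1.35e-05, limma).

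**Figure D2:**
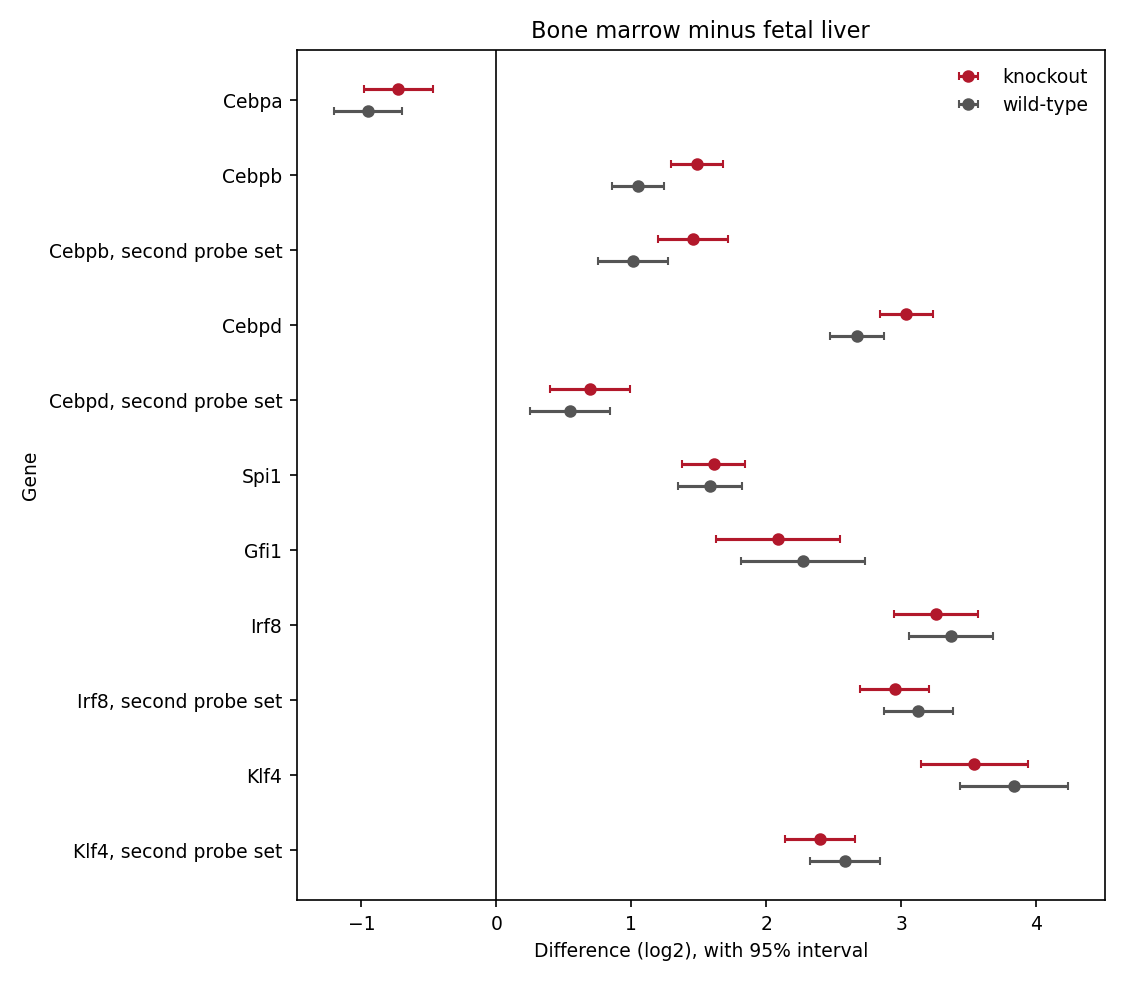
Bone marrow minus fetal liver (log2) for the 11 probe sets in knockout and wild-type mice, with 95% intervals of the fit. Brightest probe sets come from the test over genes and second ones from the test over every probe set. Only Cebpa lies left of 0, and the second probe sets of Cebpd and Klf4 lie nearer to 0 than the first.

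**Figure D3:**
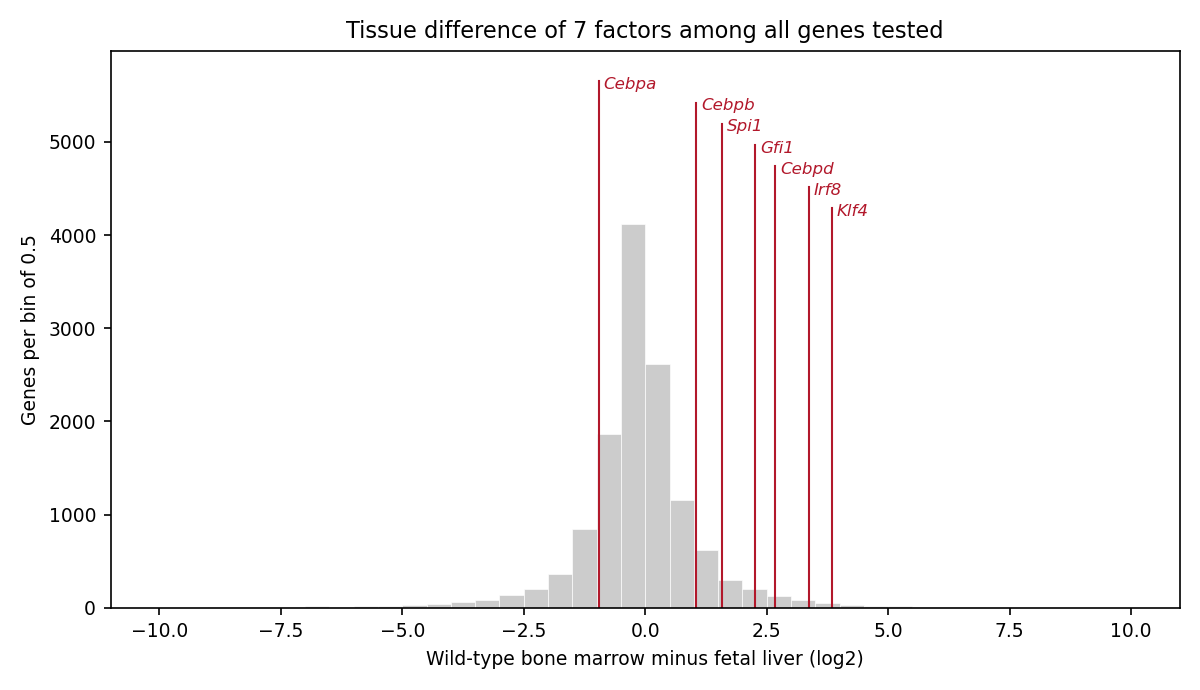
Wild-type bone marrow minus fetal liver (log2, x axis) for the 13136 genes tested, counted in bins of 0.5 (y axis), with the 7 factors marked by lines whose height has no meaning. Klf4, at 3.84, and Irf8, at 3.37, lie in the right tail, and Cebpa, at -0.95, lies left of the centre.

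RNA quality and cell content moved with the tissue difference. The log2 ratio of 3′ to 5′ control probe sets for Gapdh was 0.48 to 0.73 in knockout and 0.56 to 0.78 in wild-type marrow, against 1.62 to 1.86 in knockout and 1.33 to 1.66 in wild-type fetal liver. Its part in the results was not tested. All 20 tested genes of neutrophil granules and maturation were higher in marrow of both genotypes, with a median of 4.32 in knockout and 4.20 in wild-type mice. Their summed intensity was 166309 to 168097 in knockout and 163904 to 164758 in wild-type marrow, against 12583 to 16875 in knockout and 12774 to 15176 in wild-type fetal liver. Ngp, a granule protein, differed by 5.13 and 5.38, and Cybb, the NADPH oxidase subunit, by 4.87 and 5.05 in knockout and wild-type mice. Itgam, the integrin chain CD11b, lay in fetal liver under the floor of 5 (log2) that a gene had to reach on some arrays to be tested, and counted from that floor it was higher in marrow by at least 3.98 and 4.20. With all values under the floor raised to it, the medians of the 20 genes were 3.92 and 4.06.

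Other cells that use these factors also differed between the tissues. All 13 tested B lineage genes were higher in marrow of both genotypes, with medians of 4.73 in knockout and 4.80 in wild-type mice and a summed intensity of 18001 to 18130 in knockout and 19327 to 19345 in wild-type marrow, against 618 to 656 in knockout and 606 to 660 in wild-type fetal liver. Of 9 dendritic cell genes 7 were higher in both genotypes, while 1 in knockout and 2 in wild-type mice were lower. Of 18 monocyte and macrophage genes 11 were higher and 3 lower in knockout marrow, and 10 were higher and 4 lower in wild-type marrow. The scavenger receptor genes of that list ran opposite ways, with Cd163 higher in marrow by at least 3.10 in knockout and 2.75 in wild-type mice, counted from the floor because it lay under 5 in fetal liver. Marco differed by -3.88 in knockout mice, and in wild-type mice, where marrow lay under the floor, by -4.10 counted from it. The part of these cells in the levels of Spi1, Irf8 and Klf4 was not tested.

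Receptors through which myeloid growth factors act were mostly higher in marrow, as were the factors above. Of 12 tested, 10 were higher in knockout and 9 in wild-type marrow and 0 were lower, with medians of 0.70 and 0.92, or 0.67 and 0.69 with values under 5 (log2) raised to it. Csf3r, the receptor of granulocyte colony-stimulating factor, differed by 3.10 ± 0.094 in knockout and 3.06 ± 0.094 in wild-type mice (adjusted p = 1.99e-08 and 2.19e-08, limma). Il6ra, the interleukin-6 receptor, differed by 1.98 and 2.36, Csf2rb, the shared beta chain, by 2.43 and 2.55, and Csf2ra, its GM-CSF partner chain, by 2.44 and 2.59. With the 1 array on which Csf2ra lay under 5 (log2) raised to it, its wild-type difference was 2.46. In wild-type mice the stem cell factor receptor Kit, at -0.063, the interleukin-3 receptor chain Il3ra, at 0.21, and the shared signalling chain Il6st, at 0.0028, did not pass. In knockout mice Il3ra was higher in marrow by 0.68 (adjusted p = 0.003, limma), while Kit, at -0.18, and Il6st, at -0.17, did not pass.

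Other transcription regulators of myeloid cells were more mixed. Of 38 tested, 22 were higher and 11 lower in knockout marrow, and 22 were higher and 12 lower in wild-type marrow, with medians of 0.57 and 0.47. The genes of this list named next had the strongest test results, and all were higher in marrow. The 11 and 12 lower ones are not named. The PU.1 relative Spib, under the floor of 5 (log2) in fetal liver, was higher in marrow by at least 6.45 in knockout and 6.64 in wild-type mice, counted from the floor. The Krüppel-like factor Klf2 differed by 3.32 and 3.23, Cbfb, the partner of Runx proteins, by 2.08 and 2.14, and Myb, a factor of progenitors, by 1.77 and 1.85 in knockout and wild-type mice. These regulators need not be particular to myeloid cells, and the part of B lineage and other cells in their levels was not tested. Among C/EBP relatives and Tribbles genes 4 of 5 were higher and 1, Trib3, lower in both genotypes. Trib2 and Trib1, whose products can promote the breakdown of C/EBPα, differed by 2.11 and 2.15 and by 0.94 and 0.61, while Trib3 differed by -1.26 and -0.64, the wild-type call being lost without wild-type bone marrow replicate 1 or wild-type fetal liver replicate 2.

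**Figure D4:**
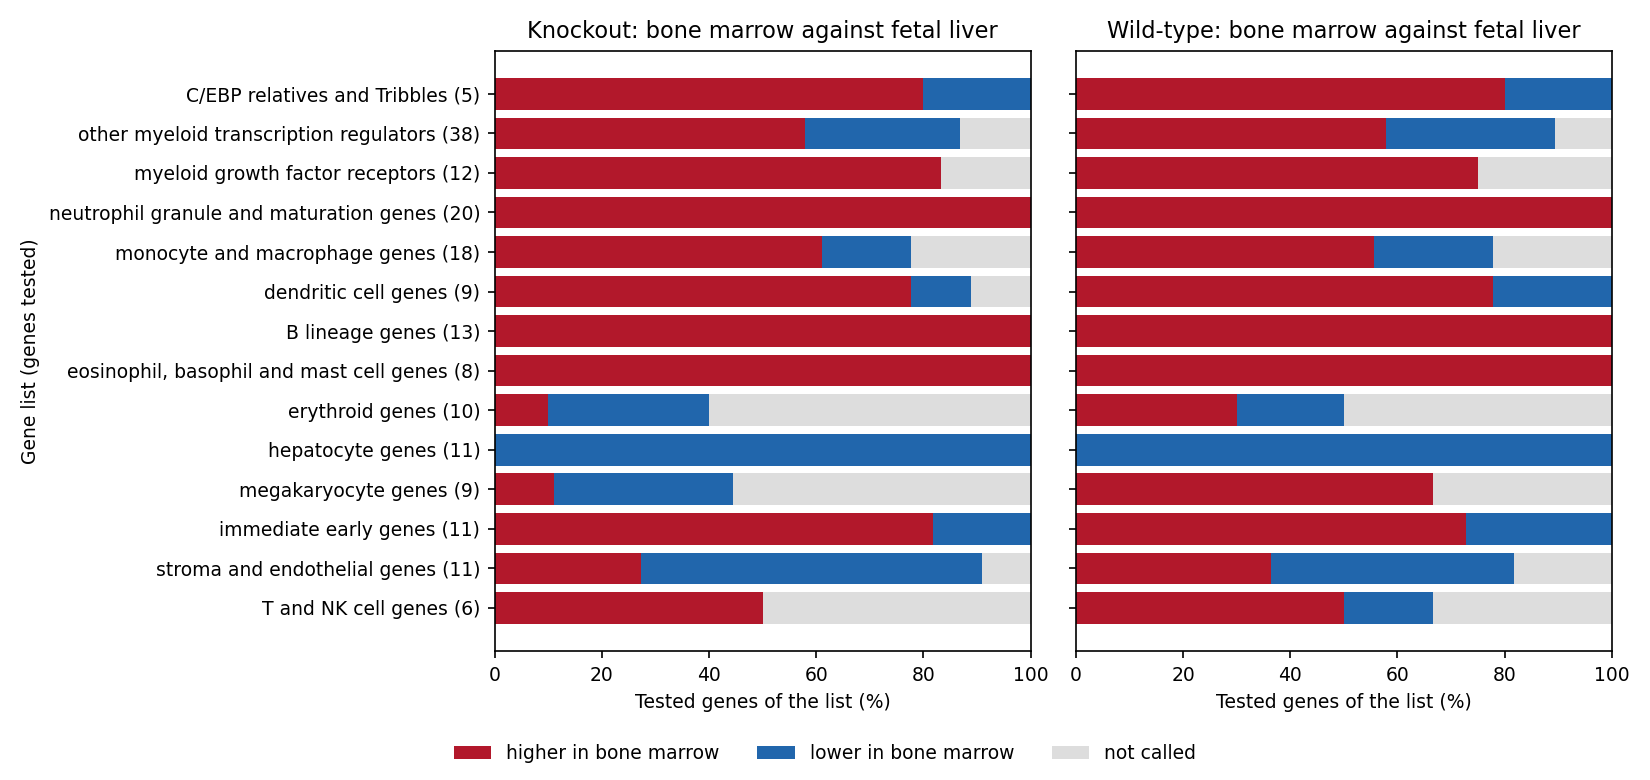
Share of the tested genes of each list (%) that were higher or lower in bone marrow than in fetal liver at an adjusted p under 0.05 (limma), or not called, in knockout and wild-type mice. The neutrophil, B lineage and eosinophil, basophil and mast cell bars are all higher, and the hepatocyte bars are all lower.

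Loss of Col18a1 was not accompanied by a called change in any of the 7 factors in bone marrow. There 0 of 7 passed (adjusted p of 0.555 to 0.983, limma), where 0.0457% of all genes were called higher and 0.365% lower. At an unadjusted p under 0.05, 2 of 7 passed, Cebpb and Cebpa, as did 886 of 13136 genes (limma). For Cebpb, Cebpa, Spi1 and Cebpd both knockout arrays lay above both wild-type arrays, as for 23.8% of all genes, and for Gfi1 both lay below, as for 19.3%.

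The sizes in marrow were small. Knockout minus wild-type was 0.26 for Cebpb (95% interval 0.067 to 0.45), 0.26 for Cebpa (0.0020 to 0.51), 0.17 for Spi1 (-0.063 to 0.41) and 0.11 for Cebpd (-0.092 to 0.30). It was 0.060 for Irf8 (-0.25 to 0.37), -0.16 for Klf4 (-0.56 to 0.24) and -0.22 for Gfi1 (-0.68 to 0.24). The second probe sets gave 0.30 for Cebpb, 0.022 for Cebpd, 0.0062 for Irf8 and -0.024 for Klf4, and for the last 3 the genotypes overlapped. These intervals come from the fit and are not adjusted for the number of genes. For Klf4 the sign turned to 0.11 without wild-type replicate 1.

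Other gene lists were compared between genotypes in the same marrow arrays, and only some of them had called genes. Of 9 megakaryocyte genes 8 fell in knockout marrow, and their summed intensity was 7439 to 7771 in knockout against 14940 to 17885 in wild-type marrow. Of 11 immediate early genes 2 rose (limma, adjusted p = 0.013 both times), the AP-1 subunit gene Jun by 1.31 ± 0.16 and the phosphatase gene Dusp1 by 0.96 ± 0.12, with a summed intensity of 13983 to 16511 in knockout against 10769 to 10786 in wild-type marrow. The count of 8 became 0 without either knockout array or with only the marrow arrays fitted and 1 without wild-type replicate 1, and the count of 2 became 0 and 1 in the same cases. Monocyte and macrophage genes had 0 of 18 called, with 16 positive, a median of 0.19 beside 0.014 over all genes, and a summed intensity of 33578 to 34196 in knockout against 31071 to 32646 in wild-type marrow. Of 11 stroma and endothelial genes 2 fell, the collagen I chain genes Col1a1, by 1.22, and Col1a2, by 0.76 (adjusted p = 0.0303 and 0.0491, limma), and all 11 were negative, with a summed intensity of 4151 to 4241 in knockout against 5653 to 7242 in wild-type marrow. That count of 2 became 0 without either knockout marrow array, without wild-type marrow replicate 1, with the replicate block or with only the marrow arrays fitted, and 1 without any 1 of the 4 fetal liver arrays. Eosinophil, basophil and mast cell genes had 0 of 8 called and 8 positive, with a summed intensity of 16711 to 17039 in knockout against 15185 to 15301 in wild-type marrow. B lineage genes had 0 of 13 called and 10 negative. The part of cell content, or of whatever moved the immediate early genes, in the small differences of Cebpb, Cebpa and Spi1 was not tested.

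Fetal liver likewise gave no call among the 7 factors, with adjusted p of 0.152 to 0.936 (limma) where 0.122% of all genes were called higher and 0.198% lower. At an unadjusted p under 0.05, 1 of 7 passed, Cebpd, as did 2890 of 13136 genes (limma). Knockout minus wild-type was -0.26 for Cebpd (-0.46 to -0.060), -0.18 for Cebpb (-0.38 to 0.0096), -0.036 for Gfi1 (-0.50 to 0.42) and 0.031 for Cebpa (-0.22 to 0.28). It was 0.13 for Klf4 (-0.27 to 0.53), 0.15 for Spi1 (-0.088 to 0.38) and 0.17 for Irf8 (-0.14 to 0.48). The second probe sets gave -0.13 for Cebpd, where the genotypes overlapped, -0.15 for Cebpb, 0.16 for Klf4 and 0.18 for Irf8. On the brightest probe sets both knockout arrays lay above both wild-type arrays for Spi1, as for 19.9% of all genes, and below them for Cebpd and Cebpb, as for 30.2%. Without wild-type replicate 2 the Gfi1 difference was 0.33, and without wild-type replicate 1 it was -0.41.

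Of the 38 other regulators 1 rose in knockout fetal liver, the PU.1 relative Spib, by 0.79 ± 0.11 (adjusted p = 0.0399, limma). Its level there was 4.82 in knockout and 4.03 in wild-type fetal liver, both under the floor of 5 (log2) set for testing a gene, which Spib passed only through marrow, so little can be read from this call. With any 1 of 7 arrays left out 0 of the regulators were called higher, and without knockout fetal liver replicate 2, the remaining array, 2 were. The count was also 0 with array weights, with no filter on low values, with the replicate block and with only the fetal liver arrays fitted. None of the 12 growth factor receptors or 20 neutrophil genes was called in either tissue between genotypes.

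**Figure D5:**
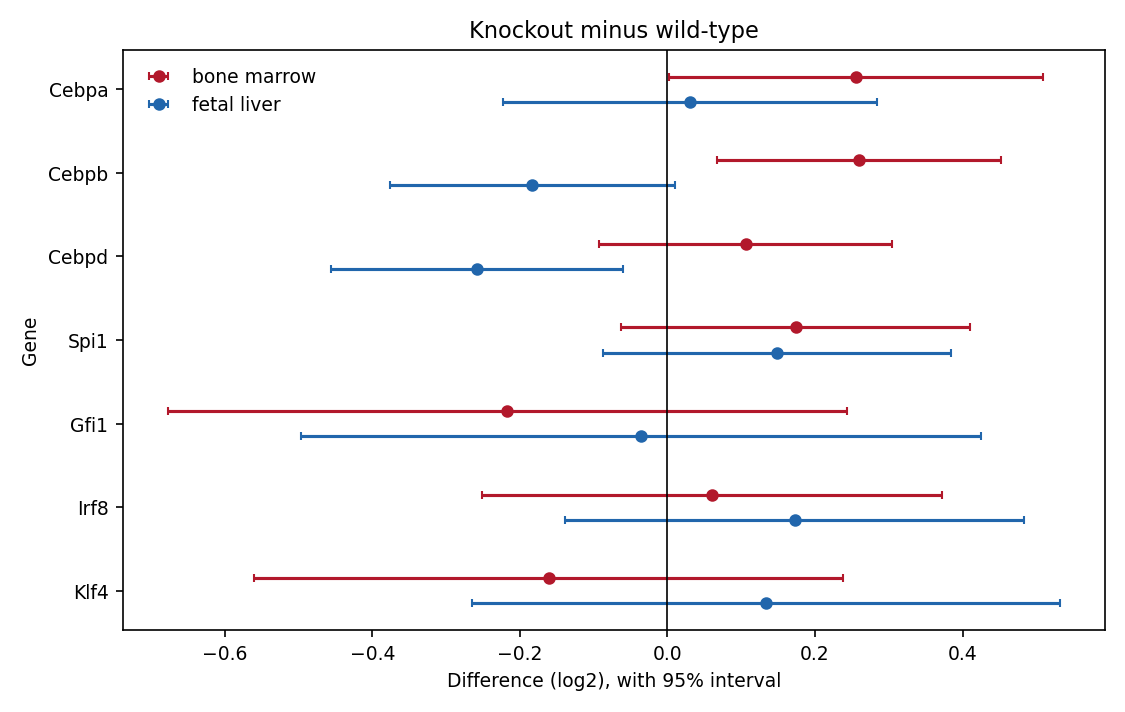
Knockout minus wild-type (log2) for the 7 factors in bone marrow and fetal liver, with 95% intervals of the fit that are not adjusted for the number of genes. All values lie between -0.26 and 0.26, and Cebpb, Cebpd and Klf4 lie on opposite sides of 0 in the 2 tissues.

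The genotype difference was also compared between the tissues, as that in bone marrow minus that in fetal liver. None of the 7 factors passed (adjusted p of 0.181 to 0.956, limma), where 0.0228% of all genes were called positive and 0.0685% negative. At an unadjusted p under 0.05, 2 of 7 passed, Cebpb and Cebpd, as did 2056 of 13136 genes (limma). Cebpb gave 0.44 (0.17 to 0.72) and Cebpd gave 0.36 (0.084 to 0.65), and the other 5 lay between -0.29 for Klf4 and 0.23 for Cebpa.

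Across the 4 groups, on the brightest probe sets, Cebpb and Cebpd had the same order, knockout marrow, wild-type marrow, wild-type fetal liver and knockout fetal liver from high to low, with no overlap between neighbours. On the second Cebpd probe set the genotypes overlapped in both tissues. Spi1 ran knockout marrow, wild-type marrow, knockout fetal liver and wild-type fetal liver without overlap. Irf8 had that order too, and Klf4 had it with the marrow groups exchanged, but for both the genotypes overlapped in each tissue. Gfi1 ran wild-type marrow, knockout marrow, wild-type and knockout fetal liver, the last 2 overlapping. Cebpa ran knockout fetal liver, wild-type fetal liver, knockout marrow and wild-type marrow, the first 2 overlapping.

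Likeness was measured as the root mean square difference between profiles over the 8 arrays, each centred on its own mean (log2). For every member the tissue difference was larger than the genotype differences. Genes near each other therefore share mainly the size of their tissue difference. Among members the closest pairs were Cebpb and Spi1, at 0.213, Irf8 and Klf4, at 0.273, and Cebpd and Irf8, at 0.294, and the farthest was Cebpa and Klf4, at 2.28. Of the other genes, those nearest to Klf4 were Napsa, at 0.139, the monocyte chemokine receptor gene Ccr2, at 0.146, and Mzb1, a gene of plasma cells and marginal zone B cells, at 0.171. Nearest to Irf8 were the galectin gene Lgals3, at 0.0566, Acap1, at 0.0683, and Tnfrsf13b, a receptor gene expressed by B cells, at 0.0964. Nearest to Cebpb were Plaat3, at 0.0535, the properdin gene Cfp, at 0.0624, and Cklf, at 0.0766, and to Cebpd Arhgap15, at 0.0517, Rcsd1, at 0.0709, and the selectin ligand gene Selplg, at 0.0758. Nearest to Spi1 were Agap1, at 0.0701, Plp2, at 0.0838, and Carhsp1, at 0.0841, and to Gfi1 Bex6, at 0.146, the calcium pump gene Atp2a3, at 0.158, and the granule proteoglycan gene Srgn, at 0.158. Nearest to Cebpa were the nucleoporin gene Nup155, at 0.0659, Spout1, at 0.0827, and the peroxisomal transporter gene Abcd3, at 0.0833.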

How the data were processed

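The deposited table holds 1 linear intensity per probe set and array, made by the authors with RMA (background correction, quantile normalization and probe summary), per the submitters' processing notes; no RMA version stands in these sources. RMA makes array distributions alike and leaves no value at 0. Log2 was taken here. Groups follow the sample titles. Probe sets naming 1 gene numbered 34958, several 932, and 9211 are unnamed here. RefSeq (GRCm38.p6) held 34754 of the first by Entrez ID, and 0 symbols changed.

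For each gene the probe set with the highest mean was tested if 5 or more (log2) on at least 2 arrays, which all 7 genes passed on all 8 arrays. In R 4.3.3 with limma 3.58.1, all arrays entered a fit with 1 mean per group (4 residual and 4.48 prior degrees of freedom), two-sided, with Benjamini-Hochberg adjustment over 13136 genes and a threshold of 0.05. A second fit took every probe set without a filter. Where a named gene lay under 5 in a tissue, values under 5 were raised to it to give the least difference. The fit was tested on simulated data, of which no outcome is given here, so no error rate is drawn from it. P-values measure only the spread between pools, which may be technical.

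Members and the 14 lists were chosen with earlier results of these data known. The rule for named genes took all members, up to 4 called genes per list by moderated t, and the 3 genes most like each member, leaving out clone-type symbols. Fewer are named here, and the receptors Kit, Il3ra and Il6st, and Trib1 and Trib3 where outside the rule, were named after their values were seen. The 22 alternatives covered scale, filter, probe set choice, pseudocount, variance model, array weights, replicate block, arrays fitted, threshold and each array left out.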

Additional observations from a re-analysis of the deposited data

Results flagged for a closer look

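For both genes below, on the brightest probe set, the knockout arrays lay above the wild-type arrays in bone marrow and below them in fetal liver. Cebpb differed between genotypes by 0.26 in bone marrow and by -0.18 in fetal liver, so that the marrow difference minus the fetal liver one was 0.44 ± 0.12 (SE; adjusted p = 0.181, limma), which missed the threshold. Its second probe set gave 0.45. Cebpd differed by 0.11 in bone marrow and by -0.26 in fetal liver, with 0.36 ± 0.12 between them (adjusted p = 0.245, limma), which missed it too, and its second probe set gave 0.15, with the genotypes overlapping in both tissues. In fetal liver genotype and sex-linked expression cannot be told apart.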

How the results depend on the processing

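Under all 22 alternatives 7 of 7 factors were called between the tissues in both genotypes, each in the same direction, and 0 of 7 between genotypes in either tissue. The interaction, with 21 alternatives, gave 0 throughout. Of 35 differences of members 29 kept their sign and their side of the threshold, and so did 17 of 20 on second probe sets. None of those that changed sign was called. Centring arrays turned the genotype difference of Cebpa in fetal liver from 0.031 to -0.0084. With each array left out in turn, the genotype difference ranged from -0.089 to 0.15 for Cebpa and from -0.41 to 0.33 for Gfi1 in fetal liver, and from -0.44 to 0.11 for Klf4 in marrow. On second probe sets in marrow it ranged from -0.11 to 0.15 for Cebpd, from -0.045 to 0.057 for Irf8 and from -0.10 to 0.056 for Klf4. The interaction ranged from -0.075 to 0.13 for Spi1, from -0.55 to 0.19 for Gfi1 and from -0.27 to 0.041 for Irf8. In each case fewer samples entered.

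Counts over all genes varied far more. With arrays left out, 54 calls between genotypes in marrow became 2 to 76, 42 in fetal liver 5 to 1010 and 12 for the interaction 5 to 80, and other settings gave 3 to 109, 4 to 395 and 5 to 77. Between tissues, 8375 of 13136 genes were called in knockout and 8663 in wild-type mice. When every probe set was tested, the calls were 17899 and 19139 of 45101 probe sets, a different unit and base. Of 140 counts of list genes 113 stayed within 1.5 times under every alternative. Many of the 113 were genotype or interaction counts that were 0 in the main fit and stayed 0. Each genotype or interaction count above 0 left that range, the megakaryocyte count of 8 in marrow running from 0 to 9. Replicate numbers are shared by name only, deviations of same-numbered arrays correlating between -0.125 and -0.00078 over 6 pairs of groups. With the replicate block 7 of 7 factors were called between the tissues and 0 between genotypes, while calls over all genes in fetal liver were 10 and for the interaction 5. The number of arrays limits what genotype difference could be seen, and dim probe sets, such as the second of Cebpd, may understate one. In fetal liver Gfi1, at 5.24 to 5.98, Spi1, at 5.73 to 6.01, and both Klf4 probe sets, at 5.53 to 6.07, were dim as well. Genotype differences of these genes there, and their differences between tissues, may be understated too.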
